A study of Mus musculus with 4 samples.

Results

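The histone genes are the subject here, as 37 of the 19938 genes that the arrays read with a probe set carrying a single gene symbol. They were chosen by name: every gene whose array symbol began with Hist1h, Hist2h, Hist3h or Hist4h, and the replacement histone genes H2afx, H2afz, H2afv, H2afy, H3f3a, H3f3b, H1f0 and H1fx. Where a gene had several such probe sets, the probe set of highest mean level on the 4 arrays was taken. By these names RefSeq held 70 replication-dependent genes, of which 31 had a probe set of their own, 38 were read only by probe sets shared among several genes, and H2ac14 was in no named probe set. Of the 8 replacement genes, 6 had a probe set of their own, H3f3b was read only by shared ones, and H1f0 was in none. Current symbols are used below, with the array's older symbol at first mention.

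Histones are the proteins around which DNA is wrapped: H2A, H2B, H3 and H4 form the nucleosome core, and H1 binds the linker DNA between cores. The replication-dependent genes lie in clusters, mostly lack introns, and make mRNAs that end in a stem-loop instead of a poly(A) tail, so that histone protein is made mainly in S phase while DNA is copied. Replacement histones typically come from solitary genes with polyadenylated mRNAs, are made outside S phase as well, and can enter chromatin independently of replication. In the cerebellum, granule neuron progenitors divide rapidly under Hedgehog signalling and then leave the cell cycle, whereas the neurons of the adult tissue do not divide.

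Total RNA was read on 4 Affymetrix Mouse Gene 1.0 ST arrays, whose standard whole-transcript protocol primes along the RNA and not only at a poly(A) tail. There was 1 medulloblastoma from a PtchLacZ/+ mouse at 5 months of age, which carries 1 lacZ allele of the Hedgehog receptor gene Ptch1. Math1-Cre;SmoM2 mice gave 2 medulloblastomas, at 2 and 1 months; in them Cre under the Math1 (Atoh1) promoter switches on SmoM2, an active form of the Hedgehog transducer Smoothened, in granule neuron progenitors and other cells of that lineage. The last array held whole cerebellum of a wild-type mouse at 2 months, and all mice shared a mixed C57BL/6 and C3H background. The tumours arose spontaneously, and the labels do not say from how many animals each RNA came, so the p-values measure the spread between these 3 tumour samples. The single cerebellum had to be given the same variance as the tumours.

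Values are the authors' log2 levels; 1 unit is a factor of 2, and a level is not compared between genes, since probe sets differ in brightness. The medians of named genes lay between 6.73 and 6.82 on the 4 arrays, and a level under an array's lower quartile (5.09 to 5.17) cannot be taken as above background. The labels of the tissues matched their markers. The mean level of 4 proliferation markers was 10.1, 9.80 and 9.91 in the PtchLacZ/+ tumour and the 2-month and 1-month SmoM2 tumours, against 5.16 in the cerebellum, and that of 5 granule neuron progenitor markers was 11.6, 11.1 and 11.3 in these tumours, in that order, against 6.09 in the cerebellum. For 5 markers of mature granule neurons the mean was 5.85 in the PtchLacZ/+ and 7.48 and 7.71 in the 2-month and 1-month SmoM2 tumours, against 11.8 in the cerebellum. These are bulk tissues, in which fewer cells of a type and less RNA per cell cannot be told apart.

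The promoters of 4 replication-dependent genes and 1 replacement gene are shown because they carry elements known from histone promoters. Each is the 250 bases before the annotated start on the gene's own strand, 5′ to 3′, from RefSeq on GRCm38.p6. The capitals mark a TATA box (TATAAA, which positions the start), a CCAAT box (CCAAT, bound by NF-Y), the octamer of H2B genes (ATTTGCAT, bound by the Pou2f1 protein), the H1 box (AAACACA, marked in H1f5) and the H4 element (GGTCCG, part of the site of Hinfp), or their reverse complements. H1f5 lies at chr13:21780626-21780875 (minus strand), H2ac4 at chr13:23750838-23751087 (plus), H2bc3 at chr13:23746484-23746733 (plus) and H4c6 at chr13:23551669-23551918 (minus), all in the Hist1 cluster. The replacement gene H2az1 lies at chr3:137864237-137864486 (plus).
H1f5: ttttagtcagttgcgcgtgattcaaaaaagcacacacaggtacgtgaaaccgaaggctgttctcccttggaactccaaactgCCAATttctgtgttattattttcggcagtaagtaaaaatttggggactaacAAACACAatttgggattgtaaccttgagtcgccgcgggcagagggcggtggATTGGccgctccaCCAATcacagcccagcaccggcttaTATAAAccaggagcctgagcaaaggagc
H2ac4: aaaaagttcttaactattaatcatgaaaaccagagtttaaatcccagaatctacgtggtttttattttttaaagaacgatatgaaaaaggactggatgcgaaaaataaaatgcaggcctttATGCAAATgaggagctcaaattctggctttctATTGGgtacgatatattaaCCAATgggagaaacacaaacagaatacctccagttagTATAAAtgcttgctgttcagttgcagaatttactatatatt
H2bc3: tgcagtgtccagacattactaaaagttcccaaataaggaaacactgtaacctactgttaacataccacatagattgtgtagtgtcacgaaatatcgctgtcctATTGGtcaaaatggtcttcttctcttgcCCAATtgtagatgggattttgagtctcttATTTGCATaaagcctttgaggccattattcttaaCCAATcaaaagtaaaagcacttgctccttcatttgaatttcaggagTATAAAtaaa
H4c6: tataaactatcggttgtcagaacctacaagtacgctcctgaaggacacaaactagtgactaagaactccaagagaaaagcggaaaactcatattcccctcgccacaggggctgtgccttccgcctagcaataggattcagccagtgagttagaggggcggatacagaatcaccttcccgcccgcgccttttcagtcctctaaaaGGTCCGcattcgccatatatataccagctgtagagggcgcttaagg
H2az1: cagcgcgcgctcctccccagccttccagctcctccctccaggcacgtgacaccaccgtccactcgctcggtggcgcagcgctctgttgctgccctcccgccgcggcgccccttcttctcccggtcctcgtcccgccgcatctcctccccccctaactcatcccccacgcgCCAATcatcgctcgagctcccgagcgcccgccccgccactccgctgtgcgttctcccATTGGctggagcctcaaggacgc

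In H1f5 the H1 box started 117 bases before the start of the gene and the TATA box 28 bases before it. The octamer began 129 bases before the start in H2ac4 and 90 bases before it in H2bc3. The TATAAA match began 41 bases before the start in H2ac4 and 10 bases before it in H2bc3. H4c6 had its H4 element 46 bases before the start, and its TATAAA match, left in lower case, lay at the far end of the window, 250 bases before the start. The H2az1 window held CCAAT boxes at 80 and 23 bases and no TATAAA.

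These elements were counted on both strands and at any position in the windows of the 31 members that RefSeq's promoter table held. No motif of the set contains another. TATAAA was present in 15 of 26 replication-dependent windows (57.7%) and in 0 of 5 replacement windows, against 14.3% of the windows of all 27025 genes. CCAAT was present in 21 of 26 replication-dependent windows (80.8%) and in 3 of 5 replacement windows (60.0%), against 37.5% of all. All 8 H2B windows, 5 H2A windows and 5 H1 windows held CCAAT, but only 2 of 6 H4 windows did. The octamer occurred in 5 of 8 H2B windows (62.5%) and 4 of 5 H2A windows, and in 1.81% of all windows. The H1 box occurred in 4 of 5 H1 windows (80.0%), against 7.2% of all, and GGTCCG in 5 of 6 H4 windows (83.3%), against 7.69% of all. Neither was limited to its class: the H1 box also occurred in 2 of 5 H2A, 2 of 8 H2B and 1 of 5 replacement windows (H3f3a), and GGTCCG in 1 of 8 H2B and 2 of 5 replacement windows (40.0%, H1f10 and Macroh2a1), against 23.1% of replication-dependent windows. The octamer was in 0 of 5 replacement windows. A match of letters is a description and was not tested as a binding site.

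The first comparison set the 3 tumours against the cerebellum, to ask how the histone genes differ between Hedgehog-driven medulloblastoma and adult cerebellum. Histone genes of both classes were higher in the tumours: 20 of the 37 members rose and none fell (limma, Benjamini-Hochberg adjusted p under 0.05 over all 19938 genes). Of all genes, 6.70% rose and 9.30% fell, 16.0% in either direction. All 3 tumours lay above the cerebellum in 34 of the 37 histone genes and all below it in 2, H2bc4 and H2bc21, against 38.1% and 32.0% of all genes. The median difference was 1.37 log2 units over the 37 histone genes and 0.04 over all genes.

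**Figure D1:**
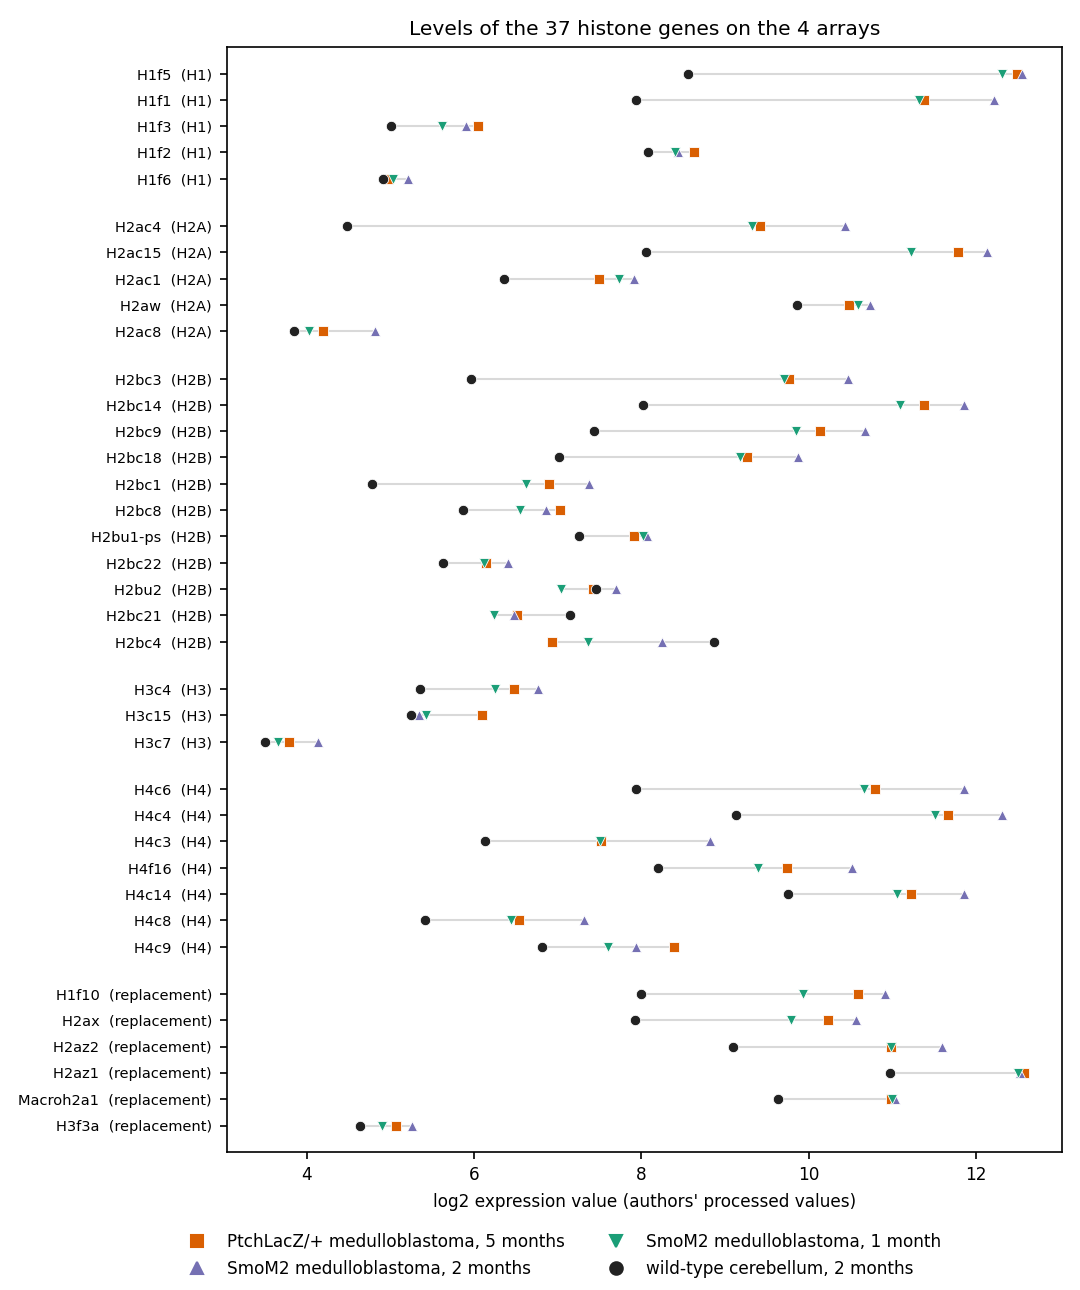
Levels (log2) of the 37 histone genes on the 4 arrays, grouped by class, with 1 symbol for each array. In the genes that rose the cerebellum symbol stands apart to the left of the 3 tumour symbols, as in H2ac4, at 9.32 or more in the tumours and 4.48 in the cerebellum.

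Of the 31 replication-dependent genes, 15 rose. Their median difference was 1.35, in a range of -1.36 to 5.25. The median difference from the cerebellum was 1.15 in the PtchLacZ/+ tumour, and 1.55 and 1.03 in the 2-month and 1-month SmoM2 tumours. Leaving out the 2-month SmoM2 tumour brought the number past the threshold to 24, of which H2bc4 and H2bc21 were lower in the tumours. It was 15 with the 1-month SmoM2 tumour left out and 12 with the PtchLacZ/+ tumour left out. The share of all genes past the threshold with a tumour left out is not given here. These counts, and single genes that passed only then, are thus not set against all genes. Adjacent copies in the clusters are nearly identical in their coding parts, so a probe set named for 1 gene may also bind transcripts of its paralogs, and the split between them is uncertain.

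The linker histone genes fell into a pair with very large differences and others with small ones. H1f5 (Hist1h1b), which encodes H1.5, was at 12.49 in the PtchLacZ/+ tumour, 12.55 in the 2-month and 12.31 in the 1-month SmoM2 tumour, and 8.56 in the cerebellum. H1f1 (Hist1h1a), which encodes H1.1, was at 11.39 in the PtchLacZ/+ tumour, 12.22 in the 2-month and 11.32 in the 1-month SmoM2 tumour, and 7.94 in the cerebellum. In both genes the 3 tumours lay at least 3 units above the cerebellum, and the groups did not overlap. H1f5 rose by 3.89 ± 0.19 (limma SE), a factor of 14.9, with an adjusted p of 0.00295, and H1f1 rose by 3.70 ± 0.40, a factor of 13.0, with an adjusted p of 0.00742.

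The other 3 linker genes did not pass. H1f3 (Hist1h1d, H1.3) was at 6.05 in the PtchLacZ/+ and 5.91 and 5.61 in the 2-month and 1-month SmoM2 tumours, against 5.01 in the cerebellum, a difference of 0.85 ± 0.23 (adjusted p = 0.0729), and the cerebellum level was under the lower quartile of its array. It passed without the 2-month SmoM2 tumour (adjusted p = 0.0415). H1f2 (Hist1h1c, H1.2) was well expressed in both tissues, at 8.63 in the PtchLacZ/+ and 8.44 and 8.41 in the 2-month and 1-month SmoM2 tumours, against 8.08 in the cerebellum, and differed by 0.42 ± 0.19 (adjusted p = 0.222). The testis linker gene H1f6 (Hist1h1t) lay close to the lower quartile on every array, at 4.97 in the PtchLacZ/+ and 5.21 and 5.03 in the 2-month and 1-month SmoM2 tumours, against 4.92 in the cerebellum, and differed by 0.15 ± 0.19 (adjusted p = 0.680). So 2 of 5 linker genes rose, with a median difference of 0.85.

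Of 5 H2A genes, 3 rose, with a median difference of 1.35. H2ac4 (Hist1h2ab) had the largest difference of any histone gene measured, at 9.42 in the PtchLacZ/+ tumour, 10.44 in the 2-month and 9.32 in the 1-month SmoM2 tumour, and 4.48 in the cerebellum. H2ac4 rose by 5.25 ± 0.48 (adjusted p = 0.00576), a factor of 37.9 for the mean of the tumours. By tumour the difference was 4.94 in the PtchLacZ/+ and 5.96 and 4.84 in the 2-month and 1-month SmoM2 tumours. The cerebellum level was under the lower quartile, so these differences may be understated. H2ac15 (Hist1h2ak) was at 11.78 in the PtchLacZ/+ tumour, 12.13 in the 2-month and 11.22 in the 1-month SmoM2 tumour, and 8.06 in the cerebellum, and rose by 3.66 ± 0.37 (adjusted p = 0.00677). H2ac1 (Hist1h2aa), known as the testis H2A gene, was at 7.50 in the PtchLacZ/+ and 7.92 and 7.73 in the 2-month and 1-month SmoM2 tumours, against 6.37 in the cerebellum, with no overlap, and rose by 1.35 ± 0.22 (adjusted p = 0.0204).

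H2aw (Hist3h2a), an H2A gene of the Hist3 cluster, was at 10.48 in the PtchLacZ/+ and 10.74 and 10.59 in the 2-month and 1-month SmoM2 tumours, against 9.86 in the cerebellum. It was high in every tissue and slightly higher in all 3 tumours, a difference of 0.74 ± 0.19 (adjusted p = 0.0608) that passed without the 2-month SmoM2 tumour (adjusted p = 0.0259) and after centring of the arrays (adjusted p = 0.0467). H2ac8 (Hist1h2ae) was under the lower quartile on all 4 arrays, at 4.19 in the PtchLacZ/+ and 4.82 and 4.03 in the 2-month and 1-month SmoM2 tumours, against 3.84 in the cerebellum, and its difference of 0.50 ± 0.35 (adjusted p = 0.433) carries little information.

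H2B was the class with most members and the only one with genes below the cerebellum in all tumours. Of 11 genes, 6 rose, with a median of 0.94. H2bc3 (Hist1h2bb), the neighbour of H2ac4, was at 9.76 in the PtchLacZ/+ tumour, 10.47 in the 2-month and 9.71 in the 1-month SmoM2 tumour, and 5.96 in the cerebellum, and rose by 4.02 ± 0.35, a factor of 16.2, with an adjusted p of 0.00523. H2bc14 (Hist1h2bm) was at 11.39 in the PtchLacZ/+ and 11.85 and 11.09 in the 2-month and 1-month SmoM2 tumours, against 8.03 in the cerebellum, and rose by 3.42 ± 0.32 (adjusted p = 0.00610). H2bc9 (Hist1h2bh) was at 10.14 in the PtchLacZ/+ and 10.68 and 9.85 in the 2-month and 1-month SmoM2 tumours, against 7.43 in the cerebellum, and rose by 2.79 ± 0.35 (adjusted p = 0.0101). In these H2B genes every tumour lay more than 2 units above the cerebellum, and the 2-month SmoM2 tumour was the highest.

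H2bc18 (Hist2h2bb), of the Hist2 cluster, was at 9.27 in the PtchLacZ/+ and 9.87 and 9.18 in the 2-month and 1-month SmoM2 tumours, against 7.02 in the cerebellum, and rose by 2.42 ± 0.32 (adjusted p = 0.0114). H2bc1 (Hist1h2ba), the testis H2B gene neighbouring H2ac1, was at 6.90 in the PtchLacZ/+ and 7.37 and 6.62 in the 2-month and 1-month SmoM2 tumours. The cerebellum, at 4.78, was under the lower quartile, so the rise of 2.18 ± 0.32 (adjusted p = 0.0149) may be understated. The annotated pseudogene H2bu1-ps (Hist3h2bb) rose by 0.74 ± 0.17 (adjusted p = 0.0486), a call that was lost with the 1-month SmoM2 tumour left out (adjusted p = 0.139) and likewise with the PtchLacZ/+ tumour (adjusted p = 0.159), after quantile normalization (adjusted p = 0.0679), with the low-level filter (adjusted p = 0.0566) and with an intensity trend in the variance (adjusted p = 0.0954). H2bc8 (Hist1h2bg) differed by 0.94 ± 0.24 (adjusted p = 0.0627) and passed without the 2-month SmoM2 tumour (adjusted p = 0.0346), H2bc22 (Hist1h2bp) differed by 0.59 ± 0.20 (adjusted p = 0.125), and H2bu2 (Hist3h2ba) was the 1 member whose tumours lay on both sides of the cerebellum, at 7.43 in the PtchLacZ/+ and 7.70 and 7.04 in the 2-month and 1-month SmoM2 tumours, against 7.45 in the cerebellum.

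H2bc4 (Hist1h2bc) and H2bc21 (Hist2h2be, which in mice encodes an H2B variant of olfactory neurons) went the other way. Like the other members, H2bc21 was placed in the replication-dependent class by its name alone. H2bc4 was at 6.93 in the PtchLacZ/+ tumour, 8.25 in the 2-month and 7.36 in the 1-month SmoM2 tumour, and 8.87 in the cerebellum. All 3 tumours were below the cerebellum, the PtchLacZ/+ tumour the most, and the difference was -1.36 ± 0.52 (adjusted p = 0.162). H2bc21 was at 6.52 in the PtchLacZ/+ tumour, 6.48 in the 2-month and 6.24 in the 1-month SmoM2 tumour, and 7.14 in the cerebellum, again with no overlap, and differed by -0.73 ± 0.20 (adjusted p = 0.0711). Neither passed over the 3 tumours, but both fell without the 2-month SmoM2 tumour, H2bc4 by 1.73 (adjusted p = 0.0038) and H2bc21 by 0.77 (adjusted p = 0.0289). H2bc21 also fell after gene length classes were centred on each array, by 0.84 (adjusted p = 0.0448).

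These genes share a feature that the choice by name did not use. In RefSeq on GRCm38.p6, 28 of the 31 replication-dependent genes span up to 1000 bp, as an intronless gene of this kind does, and 3 span more: H2bc4 with 8282 bp, H2bc21 with 2667 bp and H2bc22 with 14079 bp. Of the 28 short genes 15 rose and 13 did not pass, and their median difference was 1.49. Of the 3 longer ones 0 rose, and their median was -0.73, the value of H2bc21. The longest, H2bc22, lay above the cerebellum in all 3 tumours, with a difference of 0.59. The split by length was drawn with these values known. Some replication-dependent genes are known to give longer, polyadenylated transcripts in differentiated cells, but the probe sets do not tell the forms of a transcript apart. Whether the longer annotation has a part in the difference was not tested.

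Of H3, only 3 genes had a probe set of their own, and none was above the median of named genes on any array. H3c4 (Hist1h3d) was at 6.48 in the PtchLacZ/+ and 6.77 and 6.25 in the 2-month and 1-month SmoM2 tumours, against 5.35 in the cerebellum, with no overlap, and rose by 1.15 ± 0.25 (adjusted p = 0.0409), a call lost without the PtchLacZ/+ tumour (adjusted p = 0.119) and after quantile normalization (adjusted p = 0.0808). H3c15 (Hist2h3c2) was at 6.10 in the PtchLacZ/+ and 5.34 and 5.42 in the 2-month and 1-month SmoM2 tumours, against 5.25 in the cerebellum, so that only the PtchLacZ/+ tumour stood clear of the cerebellum, and differed by 0.37 ± 0.34 (adjusted p = 0.572). H3c7 (Hist1h3f) was under the lower quartile on all 4 arrays and differed by 0.36 ± 0.24 (adjusted p = 0.417).

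The H4 genes all lay above the cerebellum in all 3 tumours, and 3 of 7 rose, with the median of the class at 1.69. H4c6 (Hist1h4f) was at 10.79 in the PtchLacZ/+ tumour, 11.86 in the 2-month and 10.66 in the 1-month SmoM2 tumour, and 7.93 in the cerebellum, and rose by 3.17 ± 0.51, a factor of 9.01, with an adjusted p of 0.0186. H4c4 (Hist1h4d) was at 11.67 in the PtchLacZ/+ and 12.31 and 11.51 in the 2-month and 1-month SmoM2 tumours, against 9.13 in the cerebellum, and rose by 2.70 ± 0.35 (adjusted p = 0.0109). H4c14 (Hist2h4), of the Hist2 cluster, was at 11.22 in the PtchLacZ/+ and 11.86 and 11.06 in the 2-month and 1-month SmoM2 tumours, against 9.75 in the cerebellum, and rose by 1.63 ± 0.35 (adjusted p = 0.0400), though not with the PtchLacZ/+ tumour left out (adjusted p = 0.0839). The 2-month SmoM2 tumour was the highest array in each of these genes, and the other tumours lay close together.

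The other 4 H4 genes did not pass, although all 3 tumours lay above the cerebellum in each. H4c3 (Hist1h4c) was at 7.52 in the PtchLacZ/+ and 8.82 and 7.51 in the 2-month and 1-month SmoM2 tumours, against 6.13 in the cerebellum, and differed by 1.82 ± 0.58 (adjusted p = 0.107). H4f16 (Hist4h4), the only gene of the Hist4 cluster, was at 9.74 in the PtchLacZ/+ and 10.52 and 9.40 in the 2-month and 1-month SmoM2 tumours, against 8.20 in the cerebellum, and differed by 1.69 ± 0.45 (adjusted p = 0.0701). H4c8 (Hist1h4h) differed by 1.36 ± 0.39 (adjusted p = 0.0814) and H4c9 (Hist1h4i) by 1.17 ± 0.33 (adjusted p = 0.0827). Leaving out the 2-month SmoM2 tumour brought all 4 past the threshold, at an adjusted p of 0.0025 for H4c3, 0.00562 for H4f16, 0.00549 for H4c8 and 0.0461 for H4c9. H4f16 also passed without the 1-month SmoM2 tumour (adjusted p = 0.0412) and after quantile normalization (adjusted p = 0.0428).

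**Figure D2:**
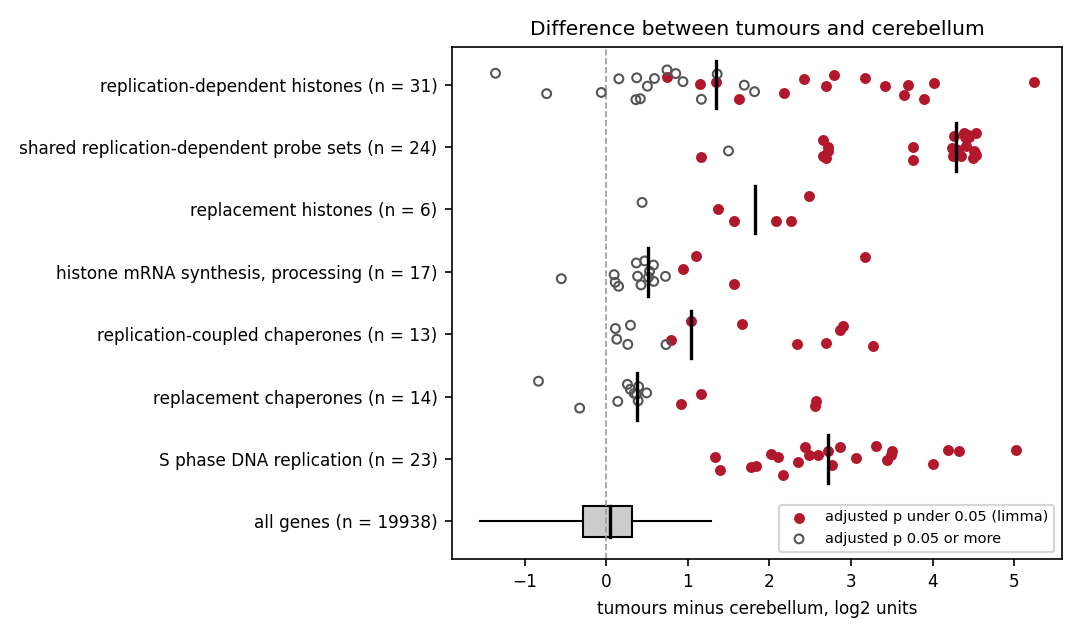
Difference in log2 level between the mean of the 3 tumours and the cerebellum, 1 point a gene or shared probe set. Rows hold the replication-dependent and replacement histones, the shared replication-dependent probe sets, and genes of histone mRNA, histone chaperones and S phase. Filled points have an adjusted p under 0.05 (limma), and the distribution of all 19938 genes is below. The replication-dependent points run from -1.36 to 5.25 and the replacement points from 0.44 to 2.48, around all-gene differences with a median of 0.04.

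The 38 genes without a probe set of their own were read by shared probe sets, in which the genes cannot be told apart. Of 24 probe sets that listed replication-dependent histones only, 23 rose when these were added to the fit, with a median difference of 4.29 and a range of 1.16 to 4.53. For H3, 10 probe sets that each listed the same 12 genes read 13.2 to 13.9 in the PtchLacZ/+ tumour, 13.4 to 14.0 and 13.2 to 13.8 in the 2-month and 1-month SmoM2 tumours, and 9.05 to 9.44 in the cerebellum. Their differences, 4.25 to 4.53, were above those of the 3 H3 probe sets named for 1 gene (0.36 to 1.15). These probe sets list overlapping sets of genes, and a pair for H2B and a pair for H4 hold identical values, so they are not separate measurements.

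For H2B, 7 shared probe sets read 12.2 to 12.8 in the PtchLacZ/+ tumour, 12.5 to 13.1 and 12.2 to 12.7 in the 2-month and 1-month SmoM2 tumours, and 8.34 to 8.63 in the cerebellum, differences of 3.76 to 4.38. For H4, 5 shared probe sets that listed 11 genes read 12.8 to 13.0, 13.4 to 13.5 and 12.7 to 12.9 in these tumours, in that order, against 10.3 to 10.4 in the cerebellum, differences of 2.66 to 2.72. The probe set shared by H4c17 and H4c11 was the 1 that did not pass, with a difference of 1.498 (limma adjusted p = 0.119). A probe set that listed H2A genes of the clusters, the replacement gene H2ax and H3c4 together read 13.0 in the PtchLacZ/+ and 13.2 and 13.0 in the 2-month and 1-month SmoM2 tumours, against 10.8 in the cerebellum. The shared probe sets thus lay 2.66 to 4.53 units higher in the tumours for the large H2B, H3 and H4 groups.

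Genes that rose were spread over the Hist1 cluster on chromosome 13. Of its 23 measured genes 12 rose, with a median of 1.36. In chromosomal order they were numbers 1 to 3 (H2bc14, H2ac15 and H1f5), 7 (H2bc9), 9 (H4c6), 13 and 14 (H3c4 and H4c4) and 19 to 23 (H2bc3, H2ac4, H1f1, H2bc1 and H2ac1). Between them lay genes with small differences, such as the linker genes H1f6 and H1f2 at numbers 16 and 18. Of the smaller clusters, 2 of 4 Hist2 genes rose (median 1.00), 1 of 3 Hist3 genes (median 0.74), and not the only Hist4 gene.

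**Figure D3:**
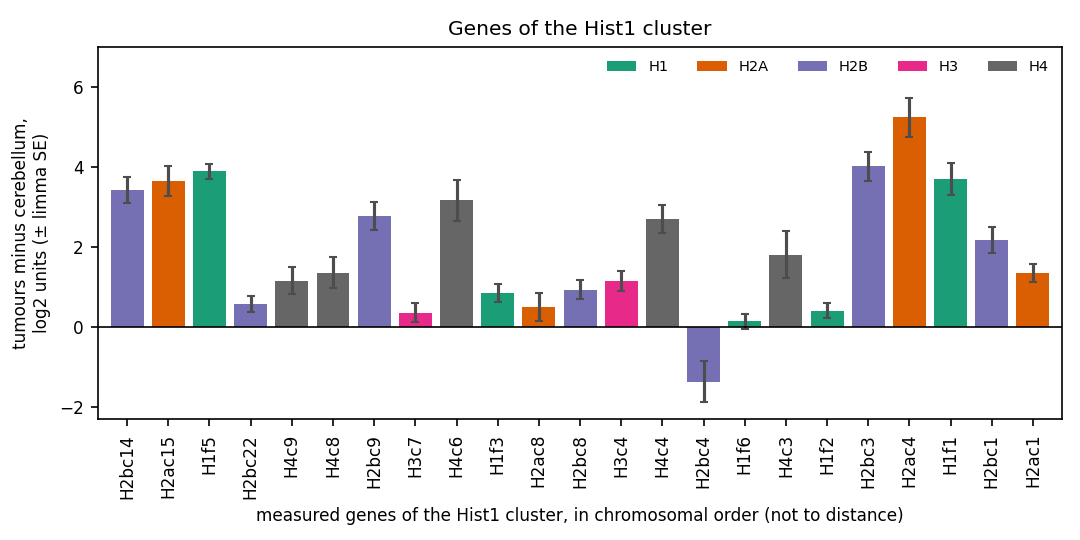
Difference between the 3 tumours and the cerebellum (log2 units, bars with limma's SE) for the 23 measured genes of the Hist1 cluster in chromosomal order, coloured by histone class. The bars at numbers 1 to 3, 9 and 19 to 21 reach 3 units or more, and H2bc4, at number 15, is the only bar below 0.

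Of the 6 replacement histone genes, 5 rose, and the differences ran from 0.44 to 2.48 around a median of 1.82. The median from the cerebellum was 1.74 in the PtchLacZ/+ tumour and 2.02 and 1.70 in the 2-month and 1-month SmoM2 tumours. H1f10 (H1fx), a linker histone made outside S phase, was at 10.59 in the PtchLacZ/+ tumour, 10.91 in the 2-month and 9.93 in the 1-month SmoM2 tumour, and 8.00 in the cerebellum, and rose by 2.48 ± 0.40, a factor of 5.59, with an adjusted p of 0.0187. H2ax (H2afx), the H2A variant that is phosphorylated at DNA breaks, was at 10.23 in the PtchLacZ/+ tumour, 10.57 in the 2-month and 9.79 in the 1-month SmoM2 tumour, and 7.93 in the cerebellum, and rose by 2.27 ± 0.33, a factor of 4.81, with an adjusted p of 0.0142. In both, the tumours lay above the cerebellum by more than 1.8 units, with the 2-month SmoM2 tumour highest and the 1-month tumour lowest.

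The genes of H2A.Z, a variant found at promoters, differed in how even they were. H2az1 (H2afz) was at 12.57 in the PtchLacZ/+ tumour, 12.53 in the 2-month and 12.51 in the 1-month SmoM2 tumour, and 10.98 in the cerebellum, and rose by 1.56 ± 0.16 (adjusted p = 0.00722). The 3 tumours lay within 0.1 unit of each other, and a second probe set of H2az1 gave nearly the same difference, 1.59. H2az2 (H2afv) was at 10.99 in the PtchLacZ/+ tumour, 11.59 in the 2-month and 10.98 in the 1-month SmoM2 tumour, and 9.10 in the cerebellum, and rose by 2.09 ± 0.30 (adjusted p = 0.0145). Macroh2a1 (H2afy), which encodes a macroH2A found on silent chromatin, was at 10.98 in the PtchLacZ/+ tumour, 11.04 in the 2-month and 11.00 in the 1-month SmoM2 tumour, and 9.63 in the cerebellum, and rose by 1.37 ± 0.16 (adjusted p = 0.00936), also with tumours nearly equal to each other.

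H3f3a, which encodes H3.3, had a probe set of its own at 5.07 in the PtchLacZ/+ and 5.26 and 4.90 in the 2-month and 1-month SmoM2 tumours, against 4.64 in the cerebellum, and differed by 0.44 ± 0.21 (adjusted p = 0.252). All but the 2-month SmoM2 level were under the lower quartile, so this probe set says little. Other probe sets, shared by H3f3a and Gm12657, read 11.5 to 11.9 in the PtchLacZ/+ tumour, 11.6 to 11.9 and 11.6 to 12.0 in the 2-month and 1-month SmoM2 tumours, and 10.4 to 10.8 in the cerebellum, differences of 1.00 to 1.17 over 4 probe sets. The 2 probe sets shared by H3f3b, the other H3.3 gene, and Gm6485 read 12.4 to 12.7, 12.7 to 12.9 and 12.3 to 12.6 in these tumours, in that order, against 12.0 to 12.3 in the cerebellum, differences of 0.47 to 0.51. These shared probe sets were not part of the fit.

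Set side by side, 15 of 31 replication-dependent genes and 5 of 6 replacement genes rose, and their medians were 1.35 and 1.82. Differences above 2.48, the largest replacement value (H1f10), were found in 9 replication-dependent genes: H1f1, H1f5, H2ac4, H2ac15, H2bc3, H2bc9, H2bc14, H4c4 and H4c6. With the 24 shared probe sets added, 38 of 55 replication-dependent probe sets rose and their median was 2.70, while none was added to the replacement genes. Of those 24, 10 listed the same 12 H3 genes. The H3.3 probe sets shared with Gm12657 or Gm6485, with differences of 0.47 to 1.17, were left out on the replacement side. The order of the medians thus depended on which shared probe sets were counted, and the difference between the classes was not tested.

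Of 17 measured genes whose products make and trim histone mRNA, 4 rose, with a median of 0.52. For this list and those below, the share of all genes that rose was 6.70%, and their median difference was 0.04. Cdk2, the kinase that with cyclin E activates the histone gene coactivator Npat, was at 9.88 in the PtchLacZ/+ and 9.78 and 9.36 in the 2-month and 1-month SmoM2 tumours, against 6.50 in the cerebellum, and rose by 3.18 ± 0.26 (adjusted p = 0.00485). Eri1, an exonuclease that trims the stem-loop, rose by 1.56 ± 0.20 (adjusted p = 0.0108), and Ncbp1, a subunit of the cap-binding complex, by 0.94 ± 0.19 (adjusted p = 0.0312). Ncbp1 did not pass when the 1-month SmoM2 tumour (adjusted p = 0.0868) or the PtchLacZ/+ tumour (adjusted p = 0.0954) was left out. Slbp, the stem-loop binding protein of replication-dependent histone mRNA, was at 9.18 in the PtchLacZ/+ and 9.52 and 9.03 in the 2-month and 1-month SmoM2 tumours, against 8.15 in the cerebellum, and rose by 1.10 ± 0.25 (adjusted p = 0.0446). The call for Slbp was lost with the 1-month SmoM2 tumour left out (adjusted p = 0.0563), likewise with the PtchLacZ/+ tumour (adjusted p = 0.121), with the mean of its probe sets (adjusted p = 0.0789) and with an intensity trend in the variance (adjusted p = 0.0544).

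The cyclin E genes Ccne1 and Ccne2 differed by 0.52 and 0.42, and neither was among the genes that rose. Npat itself differed by 0.37 ± 0.26 (adjusted p = 0.438), and Coil, the coilin gene of Cajal bodies, by 0.09 ± 0.29 (adjusted p = 0.885). Lsm11, of the U7 particle that cuts histone pre-mRNA, was the lowest of the list at -0.55 ± 0.17 (adjusted p = 0.106).

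Replication-coupled chaperones, which hand new histones to the fork, included 8 that rose of 13 measured, with a median of 1.04. Chaf1b, a subunit of chromatin assembly factor CAF-1, was at 9.32 in the PtchLacZ/+ and 9.59 and 8.63 in the 2-month and 1-month SmoM2 tumours, against 5.90 in the cerebellum, and rose by 3.27 ± 0.40 (adjusted p = 0.00970). Asf1b, an H3-H4 chaperone of dividing cells, was at 9.52 in the PtchLacZ/+ and 9.76 and 8.99 in the 2-month and 1-month SmoM2 tumours, against 6.52 in the cerebellum, and rose by 2.90 ± 0.33 (adjusted p = 0.00818), whereas its paralog Asf1a was at 8.41 in the PtchLacZ/+ and 8.48 and 8.59 in the 2-month and 1-month SmoM2 tumours, against 8.37 in the cerebellum, and differed by 0.13 ± 0.18 (adjusted p = 0.721). Mms22l, a partner of Tonsl at damaged forks, rose by 2.87 ± 0.27 (adjusted p = 0.00611). Cdan1, whose product binds Asf1 proteins, differed by 0.11 ± 0.25 (adjusted p = 0.842).

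Of 14 measured chaperones and remodellers for replacement histones, 4 rose, with a median of 0.38. Oip5 and Mis18a, which load the centromeric histone CENP-A, rose by 2.58 ± 0.27 (adjusted p = 0.00693) and 2.56 ± 0.28 (adjusted p = 0.00766). The first of these rises may be understated, because Oip5 was at 4.60 in the cerebellum. Anp32e, which removes H2A.Z, rose by 1.16 ± 0.21 (adjusted p = 0.0253), but not with the PtchLacZ/+ tumour left out (adjusted p = 0.093). Hira, the chaperone of H3.3 at genes, differed by 0.39 ± 0.19 (adjusted p = 0.252), Daxx by 0.37 ± 0.37 (adjusted p = 0.602) and Atrx by 0.26 ± 0.44 (adjusted p = 0.782). The lowest were Ubn2, a partner of Hira, at -0.83 ± 0.51 (adjusted p = 0.371), and the remodeller gene Ino80 at -0.33 ± 0.27 (adjusted p = 0.514).

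Among 7 other histone variants outside the choice by name, 2 rose. Cenpa, the centromeric H3 variant, was at 9.60 in the PtchLacZ/+ and 9.79 and 9.35 in the 2-month and 1-month SmoM2 tumours, against 6.10 in the cerebellum, and rose by 3.48 ± 0.23 (adjusted p = 0.00365). Macroh2a2 rose by 1.18 ± 0.21 (adjusted p = 0.0238), a call lost with the 1-month SmoM2 tumour left out (adjusted p = 0.0623) and likewise with the PtchLacZ/+ tumour (adjusted p = 0.0558). None of the others, which are germline variants, passed, with differences of 0.16 to 0.41.

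Genes of S phase DNA replication moved with the histone genes. All 23 measured rose, with a median difference of 2.72, from 1.33 for the flap endonuclease gene Fen1 and 1.39 for the polymerase alpha subunit gene Pola1 to 5.03 for Uhrf1, with Mcm6 at 4.33 and Mcm3 at 4.19. With the PtchLacZ/+ tumour left out, Fen1 and Pola1 missed the threshold, at an adjusted p of 0.104 and 0.0641. In the same samples all 4 proliferation markers and all 5 granule neuron progenitor markers rose, 3 of 5 microglia markers rose, 3 of 5 mature granule neuron and 3 of 4 oligodendrocyte markers fell, and 4 of 5 astrocyte markers fell. Of other cell types, 2 of 4 Purkinje cell markers, 1 of 5 endothelial and 1 of 2 erythroid markers fell, and 0 of 4 lymphocyte markers passed. The part of cell composition in the histone differences was not tested.

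The tumours of the 2 genotypes were compared next, the PtchLacZ/+ tumour against the 2 SmoM2 tumours. Genotype and age cannot be told apart, and 1 residual degree of freedom leaves little precision. No histone gene passed, and none of the 19938 genes did (0%, limma, adjusted p under 0.05). At an unadjusted p under 0.05, 1 histone gene and 280 of all genes (1.40%) differed. That gene was H3c15, at 6.10 in the PtchLacZ/+ tumour, against 5.34 and 5.42 in the 2-month and 1-month SmoM2 tumours, a difference of 0.72 ± 0.25 (limma, unadjusted p = 0.0398, adjusted p = 1.00).

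The median difference was -0.13 over replication-dependent and 0.02 over replacement genes, and -0.03 over all genes. The range over the 37 genes ran from -0.88 for H2bc4 to the 0.72 of H3c15. H4c9 differed by 0.62 ± 0.28, and H4c3 by -0.65 ± 0.58. In H4c3 the PtchLacZ/+ tumour (7.52) lay at the level of the 1-month SmoM2 tumour (7.51), and the 2-month tumour (8.82) stood above both.

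Last, the SmoM2 tumour at 2 months was set against that at 1 month, with 1 array each and so no test. The 2-month tumour had the higher level in 36 of the 37 histone genes, against 59.8% of all genes, and 61.3% of those above the median level. The exception was H3c15, at -0.08. The median difference, 2 months minus 1 month, was 0.69 over replication-dependent genes and 0.48 over replacement genes, against 0.08 over all genes. Of the 3 tumours, the 2-month SmoM2 tumour was the highest in 30 histone genes, the PtchLacZ/+ tumour in 7 and the 1-month SmoM2 tumour in 0; the 2-month tumour was highest in 49.9% of all genes (52.4% of those above the median level) and the PtchLacZ/+ tumour in 23.8%.

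Differences of at least 1 unit, a factor of 2, were found in 4 histone genes, all higher at 2 months, against 1.66% of all genes higher and 2.05% lower by that much. H4c3 was 8.82 at 2 months and 7.51 at 1 month, a difference of 1.31. H4c6 was 11.86 and 10.66 (1.20), H4f16 10.52 and 9.40 (1.12), and H2ac4 10.44 and 9.32 (1.12) at 2 and 1 months. Thus 3 of the 4 were H4 genes, and by class the medians were 0.87 for H4, 0.80 for H2A, 0.69 for H2B, 0.47 for H3 and 0.24 for H1. The shared H4 probe sets listing 11 genes were 0.64 to 0.65 higher at 2 months, those of H2B 0.32 to 0.51 and those of H3 0.13 to 0.21.

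**Figure D4:**
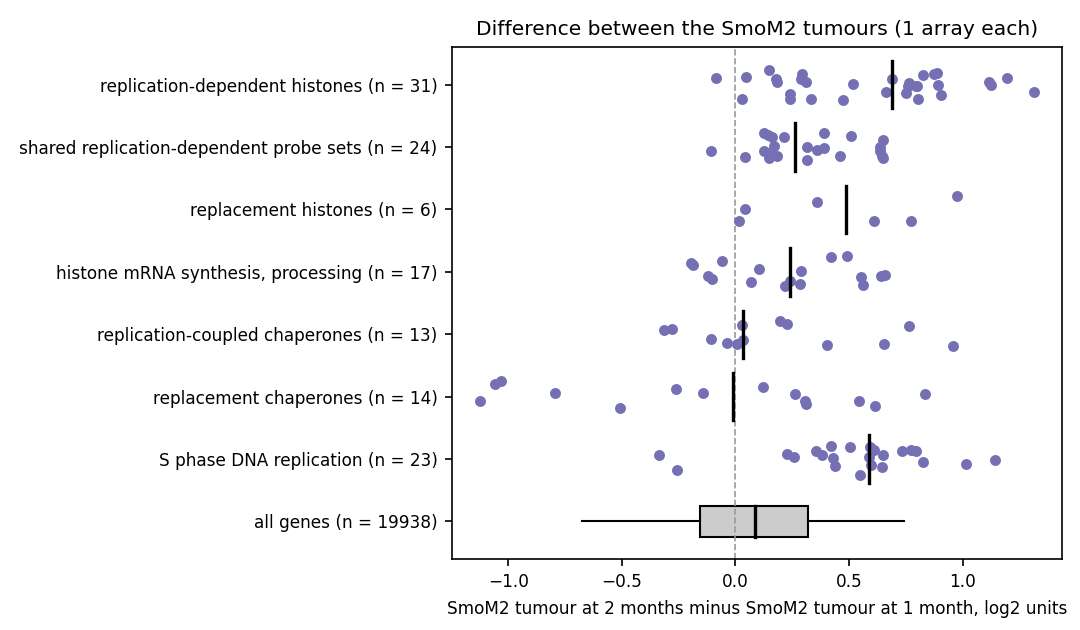
Log2 level in the SmoM2 tumour at 2 months minus that at 1 month, 1 point a gene or shared probe set. Rows hold the replication-dependent and replacement histones, the shared replication-dependent probe sets, and genes of histone mRNA, histone chaperones and S phase. The distribution of all 19938 genes is below, and there is 1 array at each age and no error bar. All histone genes but H3c15 (-0.08) lie above 0, and the H4 genes reach 1.31. In the other rows some points lie below 0, down to -1.13 for Srcap.

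The replacement genes split in this comparison. H1f10 was 10.91 at 2 months and 9.93 at 1 month, a difference of 0.97, H2ax differed by 0.77 and H2az2 by 0.61. H3f3a differed by 0.36 on its own probe set, which was close to the lower quartile, at 5.26 and 4.90. The 4 brighter probe sets shared by H3f3a and Gm12657 differed by -0.09 to -0.04. Those shared by H3f3b and Gm6485 differed by 0.23 to 0.36. Macroh2a1 and H2az1 differed by 0.04 and 0.02.

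Other measures moved with this difference only in part. The median, 2 months minus 1 month, was -0.32 over 5 granule neuron progenitor markers. It was -0.01 over 14 chaperones and remodellers for replacement histones. Of 23 S phase genes 21 were higher at 2 months, with a median of 0.59, but of 4 proliferation markers only 2 were, and Mki67 was 10.20 at 2 months and 11.01 at 1 month. Of 5 endothelial markers 4 were at least 1 unit higher at 2 months, with a list mean of 7.53 at 2 months and 6.61 at 1 month. Genes of different RefSeq length shifted unequally: the median difference was 0.01 over 1438 other genes of up to 1000 bp, 0.14 over 5527 of up to 10000 bp, 0.10 over 10557 of up to 100000 bp and -0.12 over 2294 longer ones. Most of the short genes were dim, with a median level of 4.30. With these length classes centred on each array, 34 of the 37 histone genes were higher at 2 months, against 53.7% of all genes. The same number as before, 4, reached 1 unit. The medians were 0.69 and 0.38 for the replication-dependent and replacement classes. The part of cell composition in the age difference was not tested, and age cannot be told apart from differences between the 2 tumours or their RNA.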

How the data were processed

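Expression was measured in 3 mouse medulloblastomas and 1 cerebellum, each on 1 array. Per the submitters' processing notes, the authors used Affymetrix Expression Console, with version, summarisation and normalization not given in the sources used here. Values deposited by the authors are log2 values, a scale inferred from their range (2.71 to 14.9), and they were used with no further normalization or filter. The number of arrays limits the precision.

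Of 35557 probe sets, 21789 had a single gene symbol in the platform annotation, 1621 had several and 12147 had none. Of the first, 21698 matched RefSeq (GRCm38.p6) by Entrez identifier, which gave current symbols and gene lengths. For each of 19938 genes the probe set with the highest mean was used.

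Tests used limma 3.58.1 in R 4.3.3 (lmFit and eBayes, 2 residual degrees of freedom for tumours against cerebellum and 1 between the tumour genotypes), tested on simulated data, with Benjamini-Hochberg adjustment over all genes and a threshold of 0.05. Values after ± are limma's SE. The SmoM2 tumours were compared by differences of at least 1 log2 unit.

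The histone members and the 5 pathway and 10 cell type lists were chosen with earlier results of these data known, and no list was tested as a set. Named were every replacement histone, and, in each replication-dependent class and each pathway list, the 3 genes with the largest and the 2 with the lowest difference between tumours and cerebellum. Also named were histones past the threshold between the genotypes or 1 unit apart between the SmoM2 tumours. The other members, and Npat, Ncbp1, Ccne1, Ccne2, Hira, Daxx, Atrx and Mki67, were named after their values were seen. Alternatives were quantile normalization, centring, a filter on low levels, the mean of a gene's probe sets, added shared probe sets, an intensity trend in the variance, a 1.5-fold limit and leaving out each tumour. Elements were searched as exact letters in RefSeq's promoter windows.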

Additional observations from a re-analysis of the deposited data

How the results depend on the processing

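No paired analysis was possible, because the tumours came from mutant mice and the only cerebellum from a wild-type mouse. Among the single genes named, 4 that passed in no setting had a difference between tumours and cerebellum that changed sign: leaving out 1 tumour gave -0.219 to 0.113 for H2bu2, -0.0574 to 0.272 for Coil and -0.0188 to 0.246 for Cdan1, and Ino80 was 0.0327 with length classes centred. The other 36 histone genes and both class medians kept their sign in the settings run. With 24 shared probe sets added to the 31 replication-dependent genes, 38 of the 55 probe sets passed, against 15 of 31, and the median was 2.70 in place of 1.35; the shared sets list many of the same genes again. Leaving out 1 tumour gave 12 to 24 genes and medians of 1.19 to 1.46, and 5 replacement genes in each case, with medians of 1.72 to 1.88. The share of all genes that passed with a tumour left out is not given here. With the low-level filter the replacement median was 2.09, against 1.82, because H3f3a was removed and 5 genes were left. At 1.5-fold, 20 histone genes differed between the SmoM2 tumours, against 4 at 2-fold. The share of all genes past 1.5-fold is not given here, so the count of 20 has no background to be read against. No histone gene passed between the genotypes in any of the settings run, while 14 of all genes did after quantile normalization and 1 with an intensity trend; without a SmoM2 tumour this comparison has no residual degree of freedom and was not run. Scaling moved the all-gene median between the SmoM2 tumours, 2 months minus 1 month, to 0.20 after quantile normalization and 0.02 after centring, against 0.08; 35 and 32 histone genes were then higher at 2 months, and 71.1% and 51.9% of all genes. Alternatives chosen after seeing the data were leaving out the 3 testis genes and the pseudogene (12 of 27 passed, median 1.36), keeping members above the lower quartile in a tumour (median 1.36 over 29 genes), and centring length classes (16 of 31 passed, median 1.34). Levels near background limit what can be said of H2ac8, H3c7 and H3f3a.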
